A study of Mus musculus with 12 samples.

Results

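The comparison described here sets macrophages that lack Atf3 against wild-type (WT) macrophages after both were loaded with oxidised low-density lipoprotein (oxLDL). Its members are the 6 arrays whose titles give the oxLDL stimulus, 3 Atf3KO_oxLDL and 3 WT_oxLDL arrays, of 12 arrays in the series. The other 6 arrays are the unstimulated cells of each genotype, again 3 and 3. All mice were female, 8 to 12 weeks old, fed normal chow and on a C57BL/6J background, and the labels describe a separate mouse for each array. Bone marrow cells from the femur were grown into macrophages with recombinant human M-CSF at 50 ng/mL, which every group received. On day 7 the cells of both groups compared here were given human LDL oxidised with copper sulphate at 25 ug/mL for 24 h. The knockout is given in the labels as Atf3-/-. The labels do not say how the allele was made or whether the WT mice were littermates.

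Atf3 is a DNA-binding protein with a basic leucine zipper, one of the ATF/CREB transcription factors. It is made rapidly when cells are stressed or when Toll-like receptors are engaged, and in mouse macrophages it is known as a repressor of inflammatory genes. Macrophages take up oxLDL through scavenger receptors such as Cd36 and Msr1, hydrolyse its cholesteryl esters in lysosomes, and store the cholesterol again as esters in lipid droplets, which gives the foam cells of atherosclerotic plaques. The series concerns transcription during foam cell formation in both genotypes, and the comparison here asks how the loaded cells differ when Atf3 is lost.

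Each of 74007 rows of the deposited table holds the level of a transcript-level probe set on the log2 scale, and carries an Ensembl transcript ID of the mouse. No table used here links such IDs to gene symbols, so transcripts are given by ID, with no role and no sequence. For the same reason the level of Atf3 itself, the check of the knockout that it would give, and the markers of macrophages and of other cell types were not analysed here. A transcript was tested if it lay above the array's median on at least 3 of the 6 arrays, and 37827 rows, 51.1% of the table, met this. Of these, 31734 lay above the median on all 6 arrays. Another 849 did so on the 3 knockout arrays alone, and 386 on the 3 WT arrays alone. In bulk RNA a change in the make-up of the culture and a change in RNA per cell cannot be told apart.

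One array stood apart from its group before any comparison was made. Values on WT_oxLDL replicate 3 covered a narrower range, with an interquartile range of 1.51 on the log2 scale over all 74007 rows, against 1.87 and 2.05 on the other WT_oxLDL arrays and 1.84 to 1.94 on the knockout arrays with oxLDL. Its median, 8.42, was the lowest of the 6, where the other 5 lay between 8.53 and 8.57. Over the tested transcripts the SD of the difference between 2 arrays was 0.216 for WT_oxLDL replicates 1 and 2. It was 0.348 and 0.432 when replicate 3 was set against them. Among the 3 knockout pairs it lay between 0.0850 and 0.119. Results are therefore given with this array and without it.

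The knockout was set apart most by a group of transcripts that were several-fold higher than in WT. ENSMUST00000050562 read 7.99, 7.44 and 6.97 on the WT_oxLDL arrays (log2 level, replicates 1 to 3) and 10.98, 10.72 and 10.95 on the Atf3KO_oxLDL arrays. The 2 groups lay far apart, with WT replicate 3 the lowest of all 6. The difference, knockout minus WT, was 3.41 (SE 0.24, limma adjusted p = 2.31e-04), which is 10.7-fold, and it was 9.0-fold without WT_oxLDL replicate 3 (limma adjusted p = 6.73e-07). This row passed the filter through the knockout arrays alone, as its WT values lay below the array medians, so the fold is that of the measured values and the WT level may be near background, which was not analysed here. Without stimulus the groups were also apart, at 8.62, 9.05 and 8.59 in WT and 11.23, 11.25 and 11.12 in the knockout.

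ENSMUST00000092836 read 8.73, 8.82 and 8.24 on the WT arrays with oxLDL and 11.80, 11.64 and 11.90 on the knockout arrays. Again no WT array came near a knockout array. Its difference was 3.18 (SE 0.18, limma adjusted p = 1.58e-04), or 9.08-fold, and 8.04-fold without WT_oxLDL replicate 3 (limma adjusted p = 3.45e-07). Without stimulus the same transcript was 3.57-fold higher in the knockout (limma adjusted p = 0.0235 over the 6 unstimulated arrays), and there 1 WT array, replicate 1 at 11.04, lay close to the knockout range of 11.48 to 11.59, while the other two read 9.31 and 8.81. Neither of these 2 transcripts had another ID whose values followed it, that is, whose values centred on their own mean differed by under 0.15 on each of the 12 arrays.

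The deepest deficits of the knockout came down to a small cluster of rows. ENSMUST00000112107 read 10.75, 11.53 and 10.99 on the WT_oxLDL arrays and 8.03, 8.03 and 8.07 on the knockout arrays. The WT arrays were widely spread, whereas the knockout arrays were nearly equal. Its difference was -3.04 (SE 0.20, limma adjusted p = 2.09e-04), an 8.25-fold deficit, and 8.54-fold without WT_oxLDL replicate 3 (limma adjusted p = 1.68e-06). This row, and the next one described, passed the filter through the WT arrays alone: their knockout values lay below the array medians, and the folds are again those of the measured values. Without stimulus it read 10.50, 11.97 and 12.10 in WT and 8.07, 8.12 and 8.13 in the knockout, so the deficit was present there too, with WT replicate 1 nearest to the knockout.

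ENSMUST00000152163 read 10.94, 11.77 and 11.48 on the WT_oxLDL arrays and 8.50, 8.52 and 8.55 on the knockout arrays. The WT arrays stood in the same order as for the previous transcript, with replicate 1 lowest and replicate 2 highest. The difference was -2.88 (SE 0.21, limma adjusted p = 2.31e-04), or 7.34-fold, and 7.13-fold without WT_oxLDL replicate 3 (limma adjusted p = 3.60e-06). The centred values of these 2 IDs differed by at most 0.182 on any of the 12 arrays, just over the tolerance of 0.15, so they are hardly separate measurements. ENSMUST00000112107 was followed by 6 other IDs and ENSMUST00000152163 by 3.

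Of the 13 transcripts more than 4-fold lower in the knockout and called lower in each of the 4 settings described below, 12 made up this cluster, counting ENSMUST00000112107 itself. The limit set for it was a gap under 0.5. Their centred values differed from those of ENSMUST00000112107 by at most 0.402 on any array, and the 13th differed by 1.84. This grouping was made after the values were seen. Knockout means in the cluster lay between 7.71 and 8.78 and WT means between 10.40 and 11.60, with log2 differences from -3.04 to -2.69. Without oxLDL the same 12 rows differed by -3.43 to -3.18. The remaining transcript had a difference of -2.04 with oxLDL and -1.02 without. At the tolerance of 0.15 these 13 transcripts fell into 4 families, the most populous with 7 IDs. The 127 transcripts more than 4-fold higher in the knockout fell into 97 families, the most populous with 5. Without WT_oxLDL replicate 3, 22 tested transcripts, called or not, were more than 4-fold lower in the knockout. With all 6 arrays there were 13, and the grouping was made on those only.

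**Figure D1:**
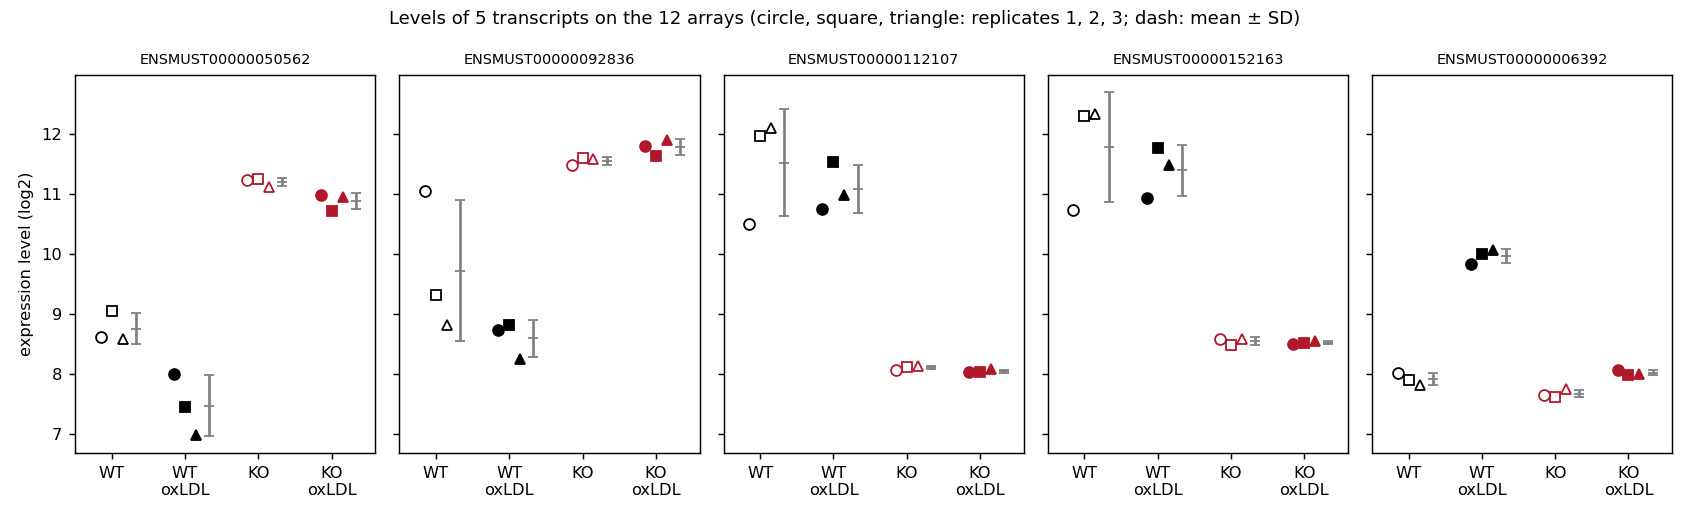
Expression level (log2) of 5 transcripts on each of the 12 arrays, with WT in black, Atf3 knockout in red, open symbols for unstimulated cells and filled symbols for oxLDL; circles, squares and triangles are replicates 1, 2 and 3, and grey marks are the group mean ± SD (n = 3). The first 2 transcripts are higher and the next 2 lower in the knockout with and without oxLDL, and for ENSMUST00000006392 the 3 WT arrays with oxLDL, at 9.83 to 10.07, lie above all the others.

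The difference between the genotypes reached a large share of the tested transcripts. In limma with the 6 oxLDL arrays, 7546 of 37827 transcripts (19.9%) had a Benjamini-Hochberg adjusted p under 0.05. Of these, 5781 (15.3% of those tested) were higher and 1765 (4.67%) lower in the knockout. Of those called higher, 753 had passed the filter on the 3 knockout arrays alone, and of those called lower, 132 on the 3 WT arrays alone; such rows were tested because one group was high and had to differ. They correspond to 5576 and 1706 distinct profiles, since some IDs carry identical values on all arrays. Those called higher had a median difference of 0.75 on the log2 scale and those called lower one of -0.60, beside a median of 0.00442 over all tested transcripts. Past 2-fold, 1645 (4.35%) were called higher and 123 (0.325%) lower. Leaving out Atf3KO_oxLDL replicate 1, 2 or 3 left 2952, 3834 or 2920 calls, and leaving out WT_oxLDL replicate 1 left 4434; a fit over all 12 arrays gave 11427. Processing days were not among the labels, so genotype and any day common to its arrays cannot be told apart. That the labels describe separate mice does not say whether cultures or RNA were handled together, and p-values then measure the spread between these samples, which may be technical.

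The groups did not overlap for 15954 transcripts (42.2%), with all 3 knockout arrays above all 3 WT arrays for 10356 (27.4%) and below them for 5598 (14.8%). More transcripts were separated in this way than passed the test. Without WT_oxLDL replicate 3 the knockout lay above for 10902 (28.8%) and below for 16464 (43.5%). Leaving out an array can only add to such counts, and smaller groups are more often apart by order alone. The higher counts are therefore not a measure of a clearer difference. Replicate spread was wider in WT, with a root mean square SD of 0.316 on the log2 scale over the tested transcripts, against 0.0844 in the knockout, a ratio of 3.75. Without WT_oxLDL replicate 3 the ratio was 1.95.

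The balance between transcripts called higher and lower in the knockout, below called rises and deficits, turned when WT_oxLDL replicate 3 was left out. Without it, 21743 transcripts (57.5%) passed, 8761 (23.2%) higher and 12982 (34.3%) lower in the knockout. All 5781 called rises and all 1765 called deficits of the 6-array comparison were called again in the same direction. The additional calls were 2980 rises and 11217 deficits. The 5 arrays are part of the 6, so the repeated calls are not a separate test. Leaving this array out lowered the root mean square SD in WT from 0.316 to 0.164. The test pools the spread of both genotypes, and with fewer WT arrays the narrower knockout group weighs more in it. Its p-values may then be too low. Past 2-fold the rises still outnumbered the deficits, 1430 (3.78%) against 354 (0.936%). Quantile normalization of the 6 arrays called 15585 (41.2%), 7479 (19.8%) higher and 8106 (21.4%) lower. Centring on array medians called 11256 (29.8%), 6884 (18.2%) higher and 4372 (11.6%) lower. The balance of all calls thus turned after quantile normalization and without this 1 array, but not after centring on array medians. The balance past 2-fold did not turn: 1468 (3.88%) higher and 179 (0.473%) lower after quantile normalization, and 1515 (4.01%) and 155 (0.410%) after centring.

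**Figure D2:**
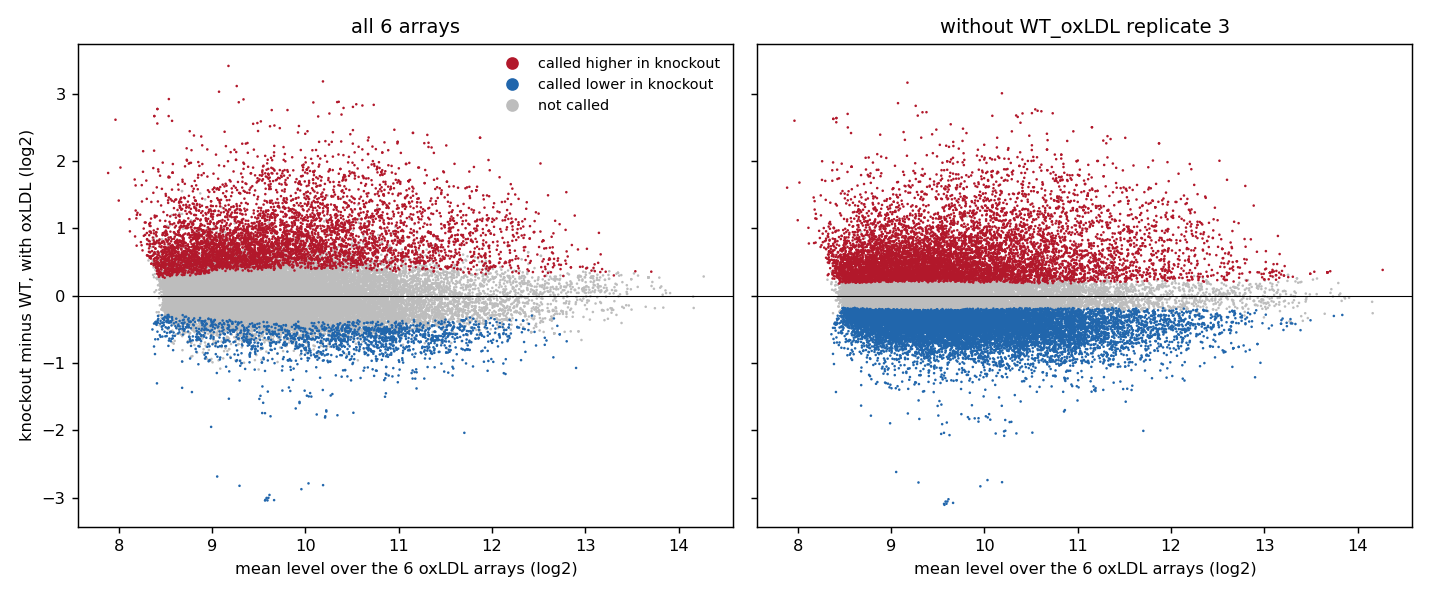
Difference of the genotypes with oxLDL (knockout minus WT, log2) against the mean level over the 6 oxLDL arrays (log2), 1 point per tested transcript, with all 6 arrays on the left and without WT_oxLDL replicate 3 on the right; red and blue points are called higher and lower in the knockout by limma. The 5781 red and 1765 blue points on the left become 8761 and 12982 on the right, and the cluster near -3 is present in both.

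Setting the mean of the knockout against 1 WT array at a time showed where this array differed. The median of the difference over all tested transcripts was -0.06 against WT_oxLDL replicate 1 and -0.10 against replicate 2, but 0.25 against replicate 3. The knockout was higher in 42.9%, 41.2% and 73.3% of tested transcripts respectively. In decile 6 of mean level the 3 medians were -0.07, -0.15 and 0.31, and in the dimmest decile they were -0.00400, 0.03 and 0.17. By these medians WT_oxLDL replicate 3 lay below the knockout in every decile, and both other WT arrays lay above it in all deciles but the dimmest.

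Among the 5781 called rises, replicate 3 was the WT array farthest from the knockout for 67.5%, replicate 1 for 17.4% and replicate 2 for 15.2%. Among the 1765 called deficits it was farthest for 4.42%, and replicate 2 for 79.7%. Such shares were not taken over all tested transcripts. The knockout mean lay above WT_oxLDL replicate 3 in 73.3% of all tested transcripts, so these shares cannot be read as traits of the called lists. For every called transcript each WT array lay on the same side of the knockout mean. The calls were made on these same values, which favours such transcripts, so this is not a separate result. Against WT_oxLDL replicates 1, 2 and 3 taken singly, the median difference of the called rises was 0.70, 0.65 and 0.90, and that of the called deficits was -0.63, -0.80 and -0.38.

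**Figure D3:**
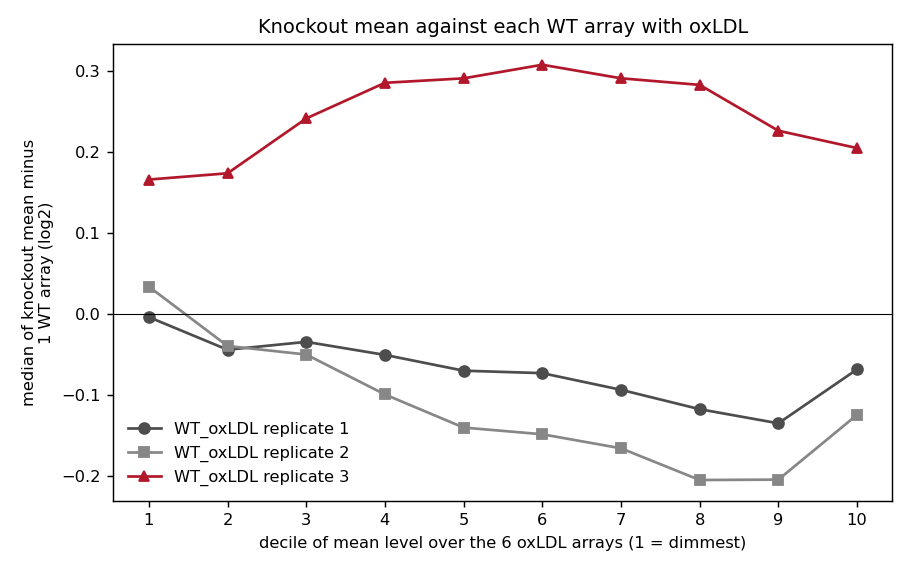
Median over the transcripts of each decile of mean level of the knockout mean minus 1 WT_oxLDL array (log2), with deciles from the dimmest at 1 to the brightest at 10 and 1 line per WT array. The line for WT_oxLDL replicate 3 stays above 0 in all deciles, at 0.31 in decile 6, while those for replicates 1 and 2 lie at -0.07 and -0.15 there.

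Transcripts called in the same direction in 4 settings were then counted. The settings were all 6 arrays, without WT_oxLDL replicate 3, quantile normalization and median centring, and the combination was chosen after the counts were seen. It held 7182 transcripts (19.0%), 5425 (14.3%) higher and 1757 (4.64%) lower in the knockout. By the difference over all 6 arrays, past 2-fold it held 1638 higher and 123 lower, and past 4-fold 127 higher and 13 lower.

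The share of transcripts called varied with the brightness of their probe sets, which is not a level that can be set between transcripts. In the 6-array comparison the share called lower was 2.80% in the dimmest decile and 12.3% in the brightest. The share called higher was 17.9% and 21.1% in those deciles and lowest, at 12.6%, in decile 2. Without WT_oxLDL replicate 3 the share called lower was 17.1% in the dimmest of the same deciles and 40.6% in the brightest. It was highest, at 46.1%, in decile 9. The share called higher was then 24.6% in the dimmest decile, 28.0% in the brightest and 19.8% in decile 2.

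**Figure D4:**
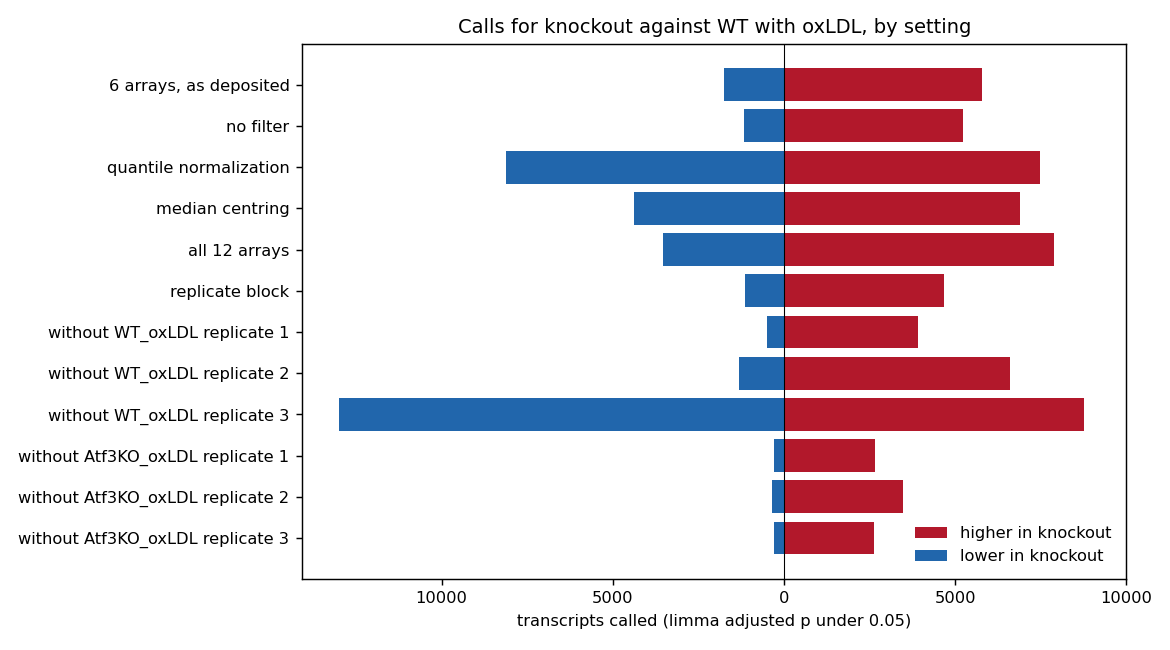
Number of transcripts called higher (red, to the right) and lower (blue, to the left) in the knockout with oxLDL by limma at an adjusted p under 0.05, for the 6 arrays as deposited and for 11 other settings. In the settings drawn, calls lower in the knockout range from 281 without Atf3KO_oxLDL replicate 1 to 12982 without WT_oxLDL replicate 3; array weights (17913) and median centring without WT_oxLDL replicate 3 (13370) gave more and are not drawn.

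Cells without oxLDL, from other mice, gave a second measurement of the genotype difference. There WT_unstimulated replicate 1 stood apart from its group: the SD of its difference from replicates 2 and 3 over the tested transcripts was 0.335 and 0.312, against 0.206 between those 2. Over the 37827 transcripts tested with oxLDL, limma with the 6 unstimulated arrays called 9634 (25.5%), 5585 (14.8%) higher and 4049 (10.7%) lower in the knockout. Past 2-fold, 725 (1.92%) were higher and 110 (0.291%) lower, beside 1645 and 123 with oxLDL. Without WT_oxLDL replicate 3 the counts with oxLDL were 1430 and 354. These rows were filtered on the oxLDL arrays, which favours transcripts high there, so the counts of the 2 states are not on an equal footing. With a filter set on the unstimulated arrays themselves, 9720 (25.8%) were called, and 16995 without WT_unstimulated replicate 1. Of the 5781 rises called with oxLDL, 4292 were also called higher without it, which is 74.2% of the oxLDL list and 76.8% of the unstimulated list. Of the 1765 deficits called with oxLDL, 1268 were also called lower without it, 71.8% of the oxLDL list and 31.3% of the unstimulated list. A single transcript was called in opposite directions.

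The sign was the same in both states for 99.2% of the called rises and 99.7% of the called deficits, beside 84.7% of all tested transcripts. The arrays of the 2 states are separate, but any feature shared by all knockout arrays or all WT arrays enters both. The median difference of the rises called in all 4 settings was 0.78 with oxLDL and 0.54 without, and that of the deficits was -0.60 and -0.47. With WT_oxLDL replicate 3 left out, the oxLDL medians of the same transcripts were 0.69 and -0.71. These transcripts were selected on their values with oxLDL, which favours the oxLDL side. In the opposite selection, the transcripts called higher without oxLDL had a median of 0.55 there and 0.72 with oxLDL. Those called lower had medians of -0.46 and -0.43. The oxLDL values of this selection include WT_oxLDL replicate 3.

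**Figure D5:**
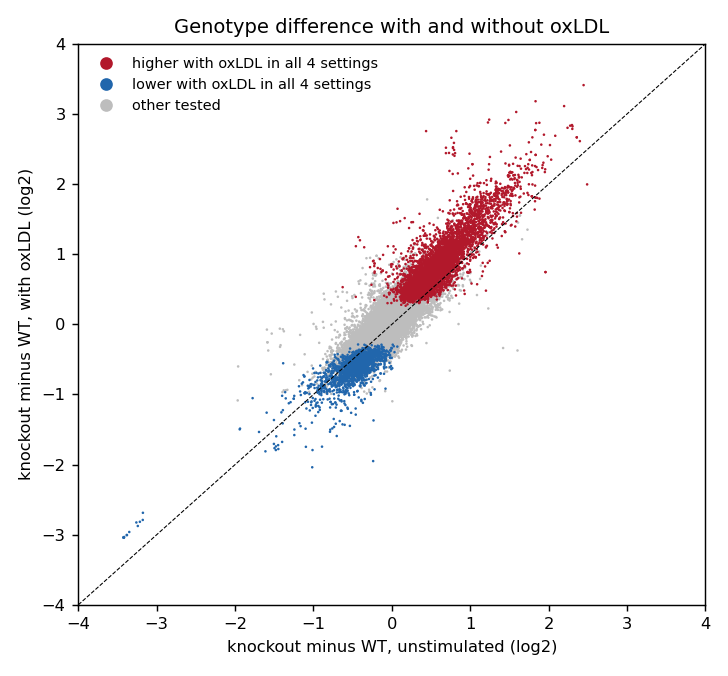
Difference of the genotypes with oxLDL (vertical axis) against that without (horizontal axis), both knockout minus WT on the log2 scale, 1 point per tested transcript; red and blue points are the 5425 and 1757 transcripts called higher and lower with oxLDL in all 4 settings, and the dashed line marks equal differences. The cluster of 12 transcripts lies at -3.43 to -3.18 without oxLDL and -3.04 to -2.69 with it.

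The test of whether the genotype difference itself changed with oxLDL, the interaction in a limma fit over all 12 arrays, called 1 of 39620 transcripts (0.00252%). At an unadjusted p under 0.05 there were 1149 (2.90%), below the share of 0.05 that this threshold lets through where nothing changes. Without WT_oxLDL replicate 3 there were 3259, after quantile normalization 2595 and after median centring 1798. The 1 transcript called at the adjusted threshold was ENSMUST00000006392, named here because it was the only call. With oxLDL it read 9.83, 9.99 and 10.07 on the WT arrays and 8.06, 7.98 and 8.00 on the knockout arrays, so that all WT arrays lay well above all knockout arrays. The knockout was 3.86-fold lower there (difference -1.95, SE 0.11, limma adjusted p = 1.58e-04). Without oxLDL the difference was -0.24 (limma adjusted p = 0.0196), and the interaction was -1.71 (SE 0.12, limma adjusted p = 1.18e-04). This row passed the filter through the WT_oxLDL arrays alone, as its values in the other groups lay below the array medians. Those values may be near background, which was not analysed here, and the fold is that of the measured values.

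For the other 4 named transcripts the interaction was 0.97, 1.35, 0.37 and 0.37 in the order of their description, each with a limma adjusted p of 1.00, which does not show that their genotype differences were alike in the 2 states. The count depended on the array that stood apart: without WT_oxLDL replicate 3 there were 17 interaction calls, 5 of them higher and 12 lower in the knockout with oxLDL, and for 15 the genotype difference was larger in size with oxLDL than without. Quantile normalization gave 16 calls, 11 higher and 5 lower in the knockout, of which 14 were larger in size with oxLDL. Median centring gave 5 calls, all of them larger in size with oxLDL. Leaving out WT_unstimulated replicate 1 gave 3, of which 1 was larger in size with oxLDL. As background, the genotype difference was larger in size with oxLDL for 66.1% of all 37827 transcripts tested with oxLDL. That share was taken on the deposited values with WT_oxLDL replicate 3 included. Interaction calls are selected for a gap between the 2 states, and their counts were not tested against this share. ENSMUST00000006392 was among the calls under each of these settings.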

How the data were processed

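Transcript levels of 12 samples were read on Affymetrix Mouse Exon 1.0 ST arrays, 1 for each sample. The deposited values are log2 levels of transcript-level probe sets, per the labels' design text. The submitters' processing notes name PLIER and Affymetrix Power Tools. Their versions, the normalization between arrays and the annotation version were not given in these sources. All 12 columns matched 1 sample each, with 0 missing values.

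Knockout and WT arrays with oxLDL, 3 of each, were compared in limma 3.58.1 (R 4.3.3) by lmFit on the deposited log2 values and eBayes with an intensity trend, at a Benjamini-Hochberg adjusted p under 0.05 over the 37827 tested rows. Residual degrees of freedom were 4, and those of the prior 3.81. The unstimulated arrays were kept out because replicate spread differs between groups; the 12-array fit is an alternative and gives the interaction. With 3 against 3 arrays an exact permutation p cannot go below 0.1, so none is given.

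Named transcripts were the 2 largest differences per direction among those called with and without WT_oxLDL replicate 3 whose groups did not overlap, leaving out IDs that followed one already chosen; up to 12 genes per direction had been planned where names were at hand. The RefSeq genes given for names have 49997 entries, and 0 of them hold an Ensembl ID, so 21 gene lists and 12 marker lists were not run. The comparison, the rule and the lists were chosen with earlier results of these data known. Alternatives were other filters, scalings, priors, array weights, 16 added to the unlogged values, all 12 arrays, a replicate block and leaving out each array.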

Additional observations from a re-analysis of the deposited data

Results flagged for a closer look

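ENSMUST00000006392 was the transcript for which the difference between the genotypes changed with oxLDL in the test of that change: knockout minus WT was -1.95 with oxLDL and -0.24 without, an interaction of -1.71 on the log2 scale. In WT its level was 2.06 higher with oxLDL than without, and in the knockout 0.35 higher, so both genotypes lay in the same direction. All 3 knockout arrays lay below all 3 WT arrays with oxLDL. Only on the WT_oxLDL arrays did it lie above the array median, so the row was tested because that group was high. Under the 5 alternatives run for it the interaction stayed between -1.76 and -1.66, with limma adjusted p between 6.20e-05 and 0.0168. Groups of 3 arrays are too small for a test of single deviating samples.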

How the results depend on the processing

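The 4 named differences kept their direction and stayed past the threshold in all 19 alternatives run, between 2.93 and 3.68, 3.01 and 3.29, -3.22 and -2.70, and -3.11 and -2.41 in the order of the report, with the highest limma adjusted p at 0.00289. They had been chosen as the largest differences called with and without WT_oxLDL replicate 3. The alternatives reuse the same arrays, so this persistence is not separate support. Counts depended strongly on the settings. All 12 arrays together gave 11427 calls, 3531 of them lower in the knockout. Quantile normalization gave 15585, with 8106 lower, and median centring 4372 lower. Without WT_oxLDL replicate 3, centring gave 22632 calls, 9262 higher and 13370 lower with 345 of the latter past 2-fold, and quantile normalization gave 23205, 10368 higher and 12837 lower with 276 past 2-fold; both were chosen after seeing the data. Weights per array gave 31847 calls, 13934 higher and 17913 lower with 235 past 2-fold, in a fit whose weights did not converge. Leaving out 1 array gave 2920 to 21743 calls, 2630 to 8761 higher and 281 to 12982 lower, and past 2-fold 1430 to 1937 higher and 74 to 354 lower. Any knockout array left out gave under 3900 calls (2952, 3834 and 2920 without replicates 1, 2 and 3), and without WT_oxLDL replicate 1 there were 4434, 511 of them lower; the cause was not tested. The filters, the priors, the weights per genotype and the addition of 16 gave no count more than 1.5 times away. Same-numbered WT and knockout arrays with oxLDL had correlations of their deviations, across transcripts, of 0.107, -0.304 and -0.307. Only knockout replicate 1 correlated best with the array of its own number. WT_oxLDL replicate 3, which stood apart, correlated most with knockout replicate 2, at 0.330. Such correlations cannot tell whether same-numbered arrays were handled together. The replicate block gave 5824 calls, with 1152 lower. Interaction calls numbered 16 after quantile normalization, 5 after centring, and 17 and 3 without WT_oxLDL replicate 3 and WT_unstimulated replicate 1, and the block left 1. Calls without oxLDL numbered 9720 with their own filter and 16995 without WT_unstimulated replicate 1. Signal over background was not analysed here, and the number of arrays limits every value.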
